A study of Mus musculus with 8 samples.

Results

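AP-1 is a group of transcription factors that bind DNA as pairs, and its transcripts were followed in resting bone marrow-derived mast cells (BMMCs) with and without CRISPR targeting of Mettl3. The members were a named list of 9 genes, namely Fos, Fosb, Fosl2, Jun, Junb, Jund, Atf3, Batf and Maff, taken by gene symbol with no threshold on a measured value, although earlier results of these data were known when the list was made. All 9 were among the 56748 genes of the count tables, and all 9 passed the filter on low counts that left 14942 genes for testing. RNA-seq of polyadenylated RNA was available for 8 libraries, 4 of each group.

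BMMCs are mast cells grown in IL-3 from the bone marrow of young C57BL/6 mice. In the Mettl3-RNP group, differentiated BMMCs were electroporated with ribonucleoproteins (RNPs) of Cas9 and guide RNAs against Mettl3, and these libraries carry the genotype Mettl3 KO in their labels. The Pulsed group was mock transfected and carries the genotype Mettl3 WT. Pulsed cells received no Cas9 and no guide RNA, so an effect of the RNP itself and an effect of losing Mettl3 cannot be told apart here. Mettl3 is the catalytic enzyme that places N6-methyladenosine (m6A) on mRNA. The Mettl3-RNP cells were an edited population and not clones, so they still held cells that had kept the protein. Both groups carry the replicate numbers 1 to 4, and the cells came from 4 mice by the series text, so libraries with the same number were compared as a pair. The text does not state that each number is 1 mouse.

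Every AP-1 protein carries a basic region that contacts DNA and a leucine zipper that joins it to a partner. Jun proteins pair with each other and with Fos proteins, whereas Fos proteins need a partner of another family. Atf3, Batf and the small Maf proteins enter pairs with members of these families and alter which sites are bound or whether a bound site is activated. In mast cells AP-1 is known as one of the factors downstream of the IgE receptor that switch on cytokine genes. Fos, Fosb, Jun, Junb, Atf3 and Maff are also textbook immediate early genes, whose transcripts appear within minutes of a stimulus and decay fast.

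The 9 genes were examined for the promoter elements through which such genes are known to respond. The window ran from -320 to -21 bases relative to the start of the canonical transcript, 300 bases per gene, and was read from the GRCm39 genome with GENCODE gene starts. It was set after an earlier window had ended within an element of Fos. The CArG box, the binding site of serum response factor, was searched as CCWWWWWWGG, where W is A or T. The cAMP response element (CRE) was searched as TGACGTCA. A CRE half-site was searched as TGACG, which also lies within every CRE. The AP-1 site, or TRE, was searched as TGACTCA and TGAGTCA, and a CRE-like site as TGACATCA. Both strands were read. Fos, Fosb and Jun are shown because they hold elements known from work on these promoters, and Batf because it was lowest in pair 3, where Fos was highest. Capitals mark the CArG box, the CRE-like site and each half-site, written CGTCA where it lies on the other strand.
Fos: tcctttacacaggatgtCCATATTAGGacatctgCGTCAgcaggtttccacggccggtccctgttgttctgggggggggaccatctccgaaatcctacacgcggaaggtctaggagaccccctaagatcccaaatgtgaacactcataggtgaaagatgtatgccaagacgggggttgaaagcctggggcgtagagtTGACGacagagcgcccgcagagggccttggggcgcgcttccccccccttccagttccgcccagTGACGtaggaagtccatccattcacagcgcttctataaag
Fosb: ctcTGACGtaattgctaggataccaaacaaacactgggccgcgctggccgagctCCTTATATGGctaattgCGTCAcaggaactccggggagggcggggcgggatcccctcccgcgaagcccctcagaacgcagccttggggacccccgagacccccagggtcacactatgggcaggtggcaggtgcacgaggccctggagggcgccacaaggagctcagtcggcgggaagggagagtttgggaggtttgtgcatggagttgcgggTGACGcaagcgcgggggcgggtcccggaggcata
Jun: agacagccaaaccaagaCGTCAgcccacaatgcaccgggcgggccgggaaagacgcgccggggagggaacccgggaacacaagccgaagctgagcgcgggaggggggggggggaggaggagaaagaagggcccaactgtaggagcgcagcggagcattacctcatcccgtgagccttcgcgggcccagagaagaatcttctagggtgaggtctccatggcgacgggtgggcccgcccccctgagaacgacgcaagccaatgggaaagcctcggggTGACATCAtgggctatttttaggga
Batf: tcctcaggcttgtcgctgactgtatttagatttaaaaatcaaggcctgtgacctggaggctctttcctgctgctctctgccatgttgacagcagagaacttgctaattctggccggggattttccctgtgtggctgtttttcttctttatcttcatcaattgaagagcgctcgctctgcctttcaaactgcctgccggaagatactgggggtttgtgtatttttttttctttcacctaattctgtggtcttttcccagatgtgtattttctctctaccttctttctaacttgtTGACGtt

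The Fos window lies at chr12:85520338-85520637 on the plus strand, that of Fosb at chr7:19043997-19044296 on the minus strand, that of Jun at chr4:94940480-94940779 on the minus strand and that of Batf at chr12:85733103-85733402 on the plus strand. A CArG box was present in Fos, at -303 to -294 from the start, and in Fosb, at -266 to -257, thus in 2 of 9 members, against 1.74% of 21757 protein-coding promoters of the same length. The full CRE was present in Jund and Maff, again 2 of 9, against 1.47% of all promoters. The half-site was found in 7 of 9 members, missing only from the windows of Fosl2 and Atf3, while 18.3% of all promoters held it. Jun had the CRE-like site at -45 to -38, 1 of 9 members, against 2.69% of all promoters. The TRE was in none of the 9 windows (0 of 9) and in 4.71% of all promoters. These matches describe letters in a window and are not evidence of binding.

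Total counts ranged from 32643260 to 45324826 per library. The libraries were those of mast cells by their markers, since the 9 mast cell markers examined summed to 43248 to 60950 CPM in Pulsed and 38256 to 53999.7 CPM in Mettl3-RNP libraries. CPM is the count per 1e+06 counts of the library after TMM scaling. Of these markers, Mcpt4, a protease of connective tissue mast cells, was low, with at most 5.59 CPM. Markers of macrophages summed to 29.1 CPM or less, those of neutrophils to 0.373 CPM (3 of 5 at 0 in every library), those of T cells to 2.59 CPM and those of B cells to 0.201 CPM. Erythroid markers reached 4.97 CPM in sum. Basophil markers reached 823 CPM in sum, nearly all from Cd200r3, with Mcpt8 at 4.03 CPM or less. Between the groups, 1 of 9 mast cell markers passed the test, the protease gene Cpa3 (log2 fold change -0.37, edgeR adjusted p = 0.0328), and 1 of 6 macrophage markers, Adgre1 (-1.13, edgeR adjusted p = 0.0435, at most 3.18 CPM). Cd68, which made up most of the highest macrophage sum, went the other way without passing (log2 fold change 1.63, edgeR adjusted p = 0.142, at most 28.3 CPM). The part of these markers in the AP-1 levels was not tested. Mettl3 itself, on chromosome 14 from 52531551 to 52542608, stood at 25.9, 24.5, 11.2 and 26.5 CPM in Pulsed 1 to 4 and at 12.3, 9.18, 4.88 and 9.21 CPM in Mettl3-RNP 1 to 4. Mettl3 fell in 4 of 4 pairs, with a log2 fold change of -1.30 (SE 0.109, edgeR adjusted p = 0.00543). Its groups overlapped through Pulsed 3 alone. Of the Mettl3 exon bases, 2308 overlap the opposite-strand gene Tox4. Reads of that overlap cannot be separated here, as the counting was not stated to use strand.

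No AP-1 member passed the test between Mettl3-RNP and Pulsed cells. In edgeR's quasi-likelihood test with the pair as a block, 0 of 9 had an adjusted p of 0.05 or less, while 559 of 14942 tested genes did, 3.74% of them, with 2.35% of the tested genes higher and 1.39% lower in Mettl3-RNP cells. At an unadjusted p under 0.05 there were 2 of 9 members, Jun and Batf, a share close to the 22.5% of all tested genes. DESeq2 called 2 members, again Jun and Batf, and 9.70% of all tested genes. Limma-voom called 0 members and 4.30% of all genes. Without the filter on low counts edgeR called 3 members, Fos, Jun and Batf, and 2.95% of 33650 genes. Of the 9 fitted log2 fold changes, 8 were above 0 and 1, that of Maff, was below. Among all tested genes 7443 were above 0 and 7499 below. The median of the 9 members was 0.37, beside -0.0013 for all tested genes. The groups overlapped for each of the 9 members, whereas 3.23% of all tested genes had groups that did not. In bulk RNA, fewer cells that express a gene and less of its RNA per cell cannot be told apart. What set the libraries apart was the replicate number, as the values by family show.

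**Figure D1:**
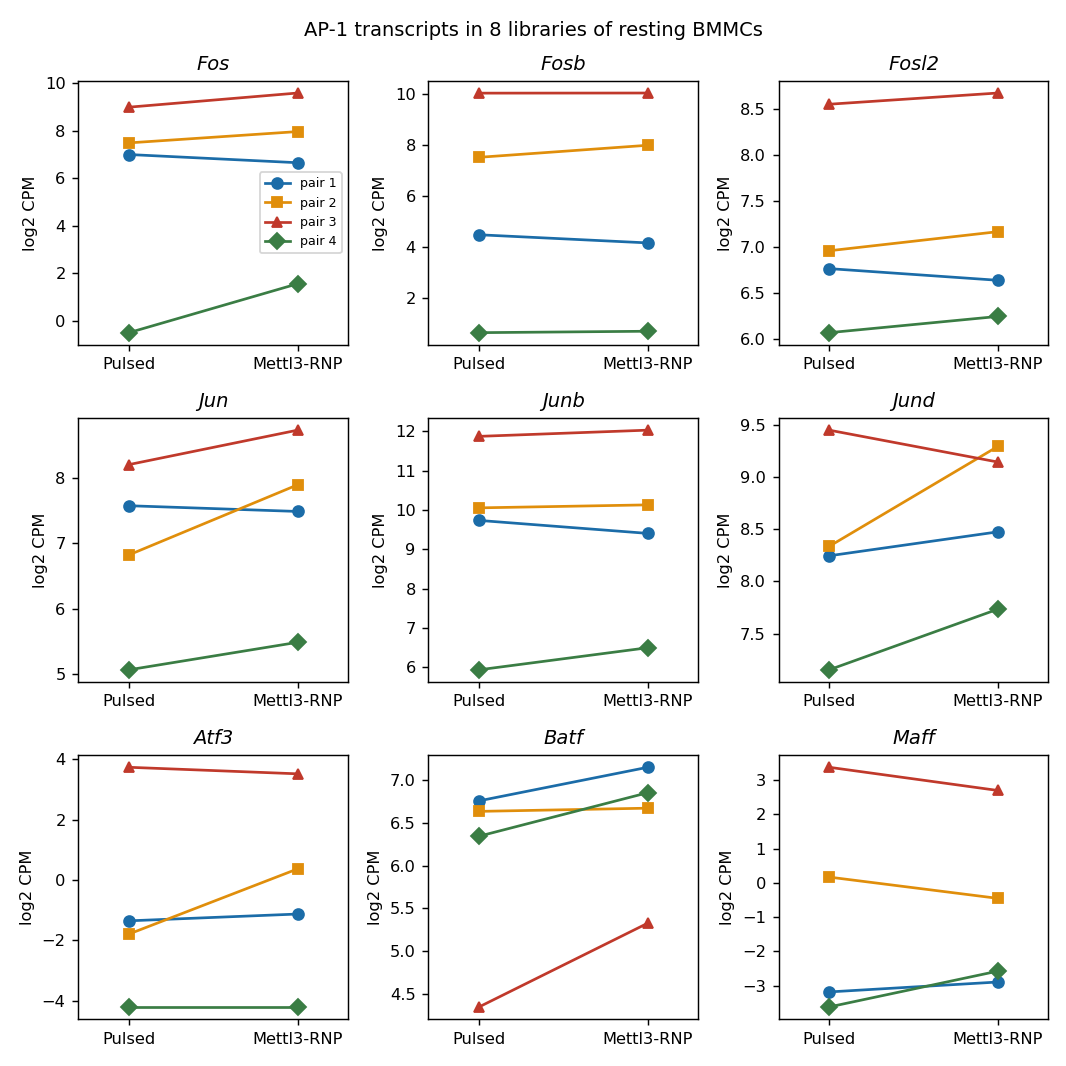
Log2 CPM of the 9 AP-1 transcripts (y axes, a range of its own in each panel) in Pulsed and Mettl3-RNP libraries, with a line joining the 2 libraries of a pair. Pair 3 (triangles) was at the top and pair 4 (diamonds) at the bottom for most genes, the reverse order held between these pairs for Batf, and for Fosb, Fosl2 and Junb the lines were shallow against the distance between pairs.

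Fos, the founding member of the family and an unstable partner of Jun proteins, lies on chromosome 12 from 85520658 to 85524047 and has 4 exons. It stood at 129, 181, 513 and 0.657 CPM in Pulsed 1 to 4. In Mettl3-RNP 1 to 4 it stood at 101, 251, 775 and 2.91 CPM. Both libraries of pair 3 were the highest of their group and both of pair 4 the lowest, with 24 counts in Pulsed 4 and 102 counts in Mettl3-RNP 4 against 20621 and 23166 counts in pair 3. Pair 3 exceeded pair 4 by 780.0-fold among Pulsed and by 267-fold among Mettl3-RNP libraries. The log2 differences of Mettl3-RNP minus Pulsed in pairs 1 to 4 were -0.35, 0.48, 0.60 and 2.06. Fos was thus lower in pair 1 and higher in the other pairs, with most of the mean difference from pair 4, where both levels were low. The fitted log2 fold change was 0.44 (SE 0.253, 95% interval -0.15 to 1.02, edgeR adjusted p = 0.358). Leaving out 1 replicate moved Fos between 0.26 (without replicate 4) and 0.75 (without replicate 1).

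Fosb, a Fos protein with a longer-lived spliced form, lies on chromosome 7 from 19036621 to 19043976 and has 4 exons. It stood at 22.2, 182, 1036 and 1.51 CPM in Pulsed 1 to 4. The matching Mettl3-RNP libraries had 17.8, 252, 1040.0 and 1.57 CPM. The order of the pairs, from 4 through 1 and 2 to 3, was identical in both groups, and within pairs 3 and 4 the libraries lay close together. Pair 3 exceeded pair 4 by 688-fold in Pulsed and by 663-fold in Mettl3-RNP libraries. For Fosb the fit gave a log2 fold change of 0.07 (SE 0.129, 95% interval -0.23 to 0.36, edgeR adjusted p = 0.815), which turned to -0.12 without replicate 2. Fosb was the member whose values followed the replicate number most closely, at 99.8% of its variance in log2 CPM, with 0.0057% between the groups.

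Fosl2, or Fra-2, is a longer-lived Fos protein that lacks the strong activation domain of Fos. Its gene lies on chromosome 5 from 32292707 to 32315186 with 4 exons, and 425 bases of them overlap the opposite-strand gene Gm72529. Pulsed 1 to 4 had 109, 124, 374 and 67.1 CPM of Fosl2. Mettl3-RNP 1 to 4 had 99.5, 143, 407 and 75.8 CPM. Pair 3 was again highest and pair 4 lowest, but the range across libraries was far narrower than that of Fos and Fosb. Its fitted log2 fold change was 0.09 (SE 0.0782, 95% interval -0.09 to 0.28, edgeR adjusted p = 0.535), the narrowest interval of the 9 members. For Fosl2 this value was 0.05 without replicate 2 and 0.13 without replicate 1.

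Jun is the member that activates most strongly as a partner of Fos. It has a single exon, on chromosome 4 from 94937271 to 94940459, and 528 bases of it overlap the antisense gene Junos. As the counting was not stated to use strand, reads of the pair cannot be separated here. Jun stood at 191, 113, 295 and 33.4 CPM in Pulsed 1 to 4. It stood at 179.6, 238, 425 and 44.8 CPM in Mettl3-RNP 1 to 4. The log2 differences in pairs 1 to 4 were -0.09, 1.07, 0.53 and 0.42, so pair 1 was near 0 and the other pairs were higher in Mettl3-RNP cells. For Jun the fit gave a log2 fold change of 0.48 (SE 0.162, 95% interval 0.11 to 0.86), with an unadjusted edgeR p of 0.0178 and an adjusted p of 0.129. DESeq2 gave an adjusted p of 0.0115 for Jun and limma-voom one of 0.120. Leaving out each replicate in turn moved the fold change between 0.28 (without replicate 2) and 0.64 (without replicate 1), at adjusted p of 0.0526 to 0.370.

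Junb pairs with Fos proteins and is a weaker activator than Jun at many sites. Its single exon in the canonical transcript lies within chromosome 8 from 85701113 to 85705359, and 173 bases overlap the opposite-strand genes Gm65321 and Prdx2. Junb stood at 851, 1061, 3739 and 61.2 CPM in Pulsed 1 to 4. The Mettl3-RNP libraries 1 to 4 held 677, 1119, 4171 and 90.3 CPM. Pair 3 exceeded pair 4 by 61.1-fold in Pulsed and 46.2-fold in Mettl3-RNP libraries, and within a pair the 2 libraries stayed much closer. Its fitted log2 fold change was 0.11 (SE 0.130, 95% interval -0.19 to 0.41, edgeR adjusted p = 0.668), which turned to -0.021 without replicate 4.

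Jund is the Jun protein known for steady expression in resting cells. Its single exon lies on chromosome 8 from 71151599 to 71153265, and 877 of its 1667 bases overlap the opposite-strand gene Gm11175, whose reads cannot be separated from those of Jund here. Jund stood at 303, 323, 698 and 142 CPM in Pulsed 1 to 4. It stood at 356, 626, 565 and 213 CPM in Mettl3-RNP 1 to 4. Pair 4 was lowest in both groups, while the highest library was number 3 in Pulsed and number 2 in Mettl3-RNP. The log2 differences were 0.23, 0.96, -0.30 and 0.58, and the fitted log2 fold change was 0.37 (SE 0.179, 95% interval -0.05 to 0.78, edgeR adjusted p = 0.277). For Jund this value was 0.16 without replicate 2 and 0.59 without replicate 3. In the canonical transcript Jun, Junb and Jund had a single exon, as did 2.0% of 12043 tested protein-coding genes.

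Atf3 is a stress-induced factor that pairs with Jun proteins and as a pair with itself represses. It lies on chromosome 1 from 190902493 to 190950241 with 4 exons. Atf3 stood at 0.338, 0.235, 13.3 and 0 CPM in Pulsed 1 to 4. It stood at 0.404, 1.24, 11.4 and 0 CPM in Mettl3-RNP 1 to 4. Nearly all its reads came from pair 3, with 535 counts in Pulsed 3 and 342 counts in Mettl3-RNP 3. In pair 4 both libraries had 0 counts, which allows up to 3 counts, or 0.0822 CPM in Pulsed 4 and 0.0855 CPM in Mettl3-RNP 4, as counting error alone. The fitted log2 fold change of Atf3 was 0.56 (SE 0.466, 95% interval -0.54 to 1.67, edgeR adjusted p = 0.542), and it rests on pair 2, whose difference was 2.16 on 9 and 53 counts. Without replicate 2 it was -0.09.

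Batf, a small factor that lacks an activation domain and joins Jun proteins and IRF factors at immune genes, lies on chromosome 12 from 85733423 to 85755861 and has 3 exons. Pulsed 1 to 4 had 108, 99.3, 20.3 and 81.2 CPM of Batf. Mettl3-RNP 1 to 4 had 142, 102, 40.1 and 116 CPM. Batf was lowest in pair 3 and highest in pair 1 in both groups, so its order was unlike that of the other members. It was the only member higher in Mettl3-RNP cells in 4 of 4 pairs, by 0.39, 0.04, 0.98 and 0.51 on the log2 scale, and 15.7% of all tested genes were higher in 4 of 4 pairs. The fitted log2 fold change was 0.47 (SE 0.135, 95% interval 0.16 to 0.78), with an unadjusted edgeR p of 0.00851 and an adjusted p of 0.0923. DESeq2 gave an adjusted p of 0.00825 for Batf and limma-voom one of 0.0912. Leaving out each replicate in turn gave fold changes from 0.31 (without replicate 3) to 0.61 (without replicate 2), at adjusted p of 0.107 to 0.243.

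Maff is a small Maf protein, which has a zipper but no activation domain and pairs with CNC factors such as Nfe2. It lies on chromosome 15 from 79230821 to 79243276 with 3 exons, of which 416 bases overlap the opposite-strand genes Gm56727 and Gm62234. Maff stood at 0.0563, 1.07, 10.3 and 0.0274 CPM in Pulsed 1 to 4. It stood at 0.0807, 0.677, 6.42 and 0.114 CPM in Mettl3-RNP 1 to 4. Counts were 1 to 4 in the 4 libraries of pairs 1 and 4, so those differences carry little information, and pairs 2 and 3 were both lower in Mettl3-RNP cells, by -0.62 and -0.68. For Maff the fit gave a log2 fold change of -0.40 (SE 0.346, 95% interval -1.20 to 0.40, edgeR adjusted p = 0.556).

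**Figure D2:**
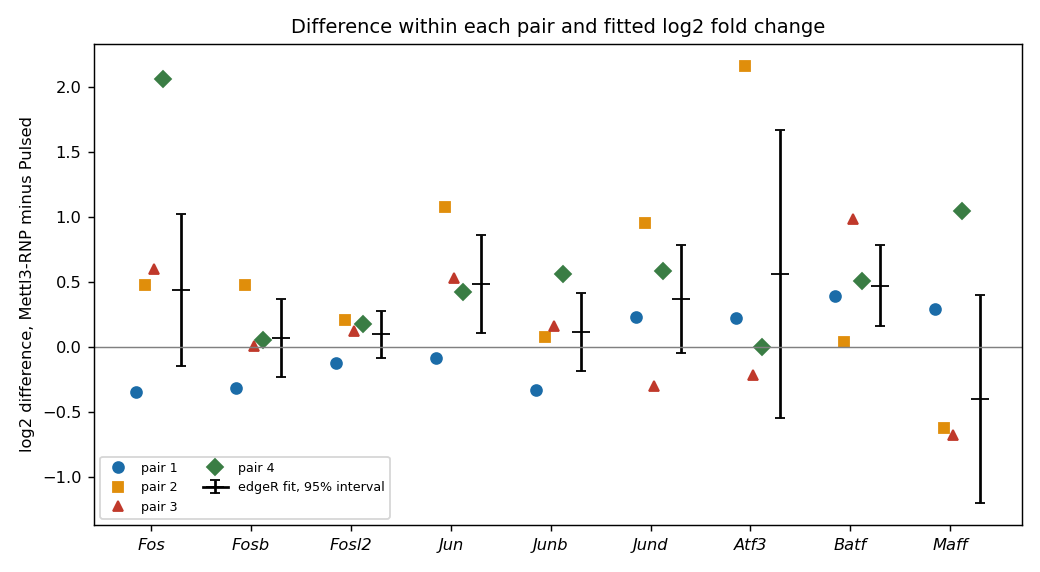
Log2 difference of Mettl3-RNP minus Pulsed (y axis) for each AP-1 gene, with 1 point per pair and, to its right, the edgeR log2 fold change with its 95% interval. Batf had 4 pairs above 0, Jun 3 of 4, and the intervals of Jun and Batf were the 2 that did not span 0, before adjustment over 14942 genes.

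Read by pair, the members did not move as 1 group. In pair 1, 4 members were higher and 5 lower in the Mettl3-RNP library, with a median log2 difference of -0.09 beside -0.02 for all tested genes. Pair 2 had 8 higher and 1 lower, with a median of 0.47 beside 0.0030 for all genes. In pair 3 there were 6 higher and 3 lower, at a median of 0.12 beside -0.03. In pair 4, 8 members were higher and Atf3 was at 0 in both libraries, at a median of 0.51 beside 0.02. Of all tested genes, 46.7, 50.3, 46.9 and 52% were higher in pairs 1 to 4. Most members varied together across libraries, so these counts are not of independent genes. The two-sided sign-flip test, an exact permutation test over 4 pairs, cannot go below p = 0.125 (2 of 16 sign assignments), which Batf reached, while Fos and Jun had p = 0.25 and the remaining members p = 0.375 to 1.

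The replicate number held 84.2% (Jund) to 99.8% (Fosb) of each member's variance in log2 CPM, and the group 0.00033% (Maff) to 7.37% (Batf). The median over all tested genes was 78.3% for the number and 5.68% for the group. Replicate 3 held the highest level of 8 of 9 members in Pulsed and of 7 of 9 in Mettl3-RNP libraries, whereas it was highest for 39.6% and 34.5% of all tested genes. By the SD of log2 CPM over the 8 libraries, Fosb ranked 3, Fos 5, Atf3 6, Maff 10 and Junb 34 of 14942 genes, with SDs of 3.78, 3.61, 3.05, 2.72 and 2.22 against a median of 0.43. Jun ranked 731, Fosl2 1797, Batf 1943 and Jund 2870. The resting cultures thus differed from one another in Fos, Fosb and Junb far more than edited and mock cells of a pair did. TMM factors were lowest in replicate 3, at 0.889 in Pulsed 3 and 0.917 in Mettl3-RNP 3, and 0.987 to 1.05 in the other libraries. The mast cell marker sums of replicate 3, 54536 and 50141 CPM, lay within the range of their groups. Its neutrophil marker sums were the highest of each group, at 0.373 and 0.201 CPM, and in Pulsed its macrophage and erythroid marker sums were the highest too, at 9.87 and 4.97 CPM, as was its B cell marker sum in Mettl3-RNP, at 0.201 CPM. The part of these in the levels of the AP-1 genes was not tested.

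Fos levels across the 8 libraries were set against those of 8503 other genes that averaged 10 CPM or more, as a description, since libraries of a pair lay close together and are not independent points. Junb was the closest, with a Pearson r of 0.98 in log2 CPM. The closest genes outside the list were Egr1, a zinc finger factor of the immediate early class, Dusp1, a phosphatase of MAP kinases, the cytokine Osm, the immediate early gene Ier2 and Brwd1, a bromodomain protein, with r of 0.973 to 0.977. Jun followed at 0.96 (rank 7), Fosb at 0.92 (rank 24), Jund at 0.91 (rank 38) and Fosl2 at 0.80 (rank 257). Batf was at -0.41, rank 6369. Egr1 ranged from 26.3 CPM in Pulsed 4 to 8655 CPM in Pulsed 3, and from 119.9 CPM in Mettl3-RNP 4 to 10694 CPM in Mettl3-RNP 3, so pairs 3 and 4 were its extremes as well.

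Levels between genes were compared per length, as RPKM (counts per kb of exon per 1e+06 counts). Junb had the highest median over 8 libraries, 401 RPKM, followed by Jund at 204 (overlap with Gm11175 not resolved), Batf at 70.6, Fos at 65.6, Jun at 58.1, Fosb at 16.3, Fosl2 at 11.2, Atf3 at 0.152 and Maff at 0.124 RPKM. Jund exceeded Batf, and Fosl2 exceeded Atf3, in 8 of 8 libraries. Junb exceeded Jund in 6 of 8, all but those of pair 4. Batf and Fos, Fos and Jun, and Fosb and Fosl2 each held their order in 4 of 8 libraries, and Atf3 and Maff in 5 of 8, so these neighbours could not be ordered.

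The Jun pool (Jun, Junb and Jund) summed to 122 to 2224 RPKM, and the Fos pool (Fos, Fosb and Fosl2) to 6.97 to 534 RPKM. Jun transcripts outnumbered Fos transcripts in every library. The ratio was 8.74, 5.73, 4.96 and 17.4 in Pulsed 1 to 4 and 10.001, 5.72, 4.16 and 20.5 in Mettl3-RNP 1 to 4. It was lowest where the levels were highest, in pair 3, and highest in pair 4, and did not move one way with the group (higher in 2 of 4 pairs, exact sign-flip p = 1).

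Make-up of the pools also followed the pair. Junb made up 59.6, 66.0, 75.4 and 21.1% of the Jun pool in Pulsed 1 to 4 and 51.3, 51.1, 78.8 and 21.1% in Mettl3-RNP 1 to 4. In pair 4 Jund had the largest share, with 70.2% of the pool in Pulsed and 71.1% in Mettl3-RNP cells. Its own level was lowest there too, at 142 and 213 CPM. Whether reads in the overlap with Gm11175 were counted for Jund is not known. Fos made up 51.8 to 79.6% of the Fos pool in Pulsed 1 to 3 and 61.5 to 77.6% in Mettl3-RNP 1 to 3. That Fos exceeded Fosb in Pulsed 3 rests on the exon lengths used, as CPM there was 513 for Fos and 1036 for Fosb. In pair 4 Fos made up 4.00% in Pulsed and 14.1% in Mettl3-RNP cells, and Fosl2 92.5% and 83.1%. Jund and Fosl2 thus led their pools where Junb and Fos, the immediate early genes, were low. Between the groups the shares gave p = 0.375 to 0.5 in the exact sign-flip permutation test (smallest possible 0.125).

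**Figure D3:**
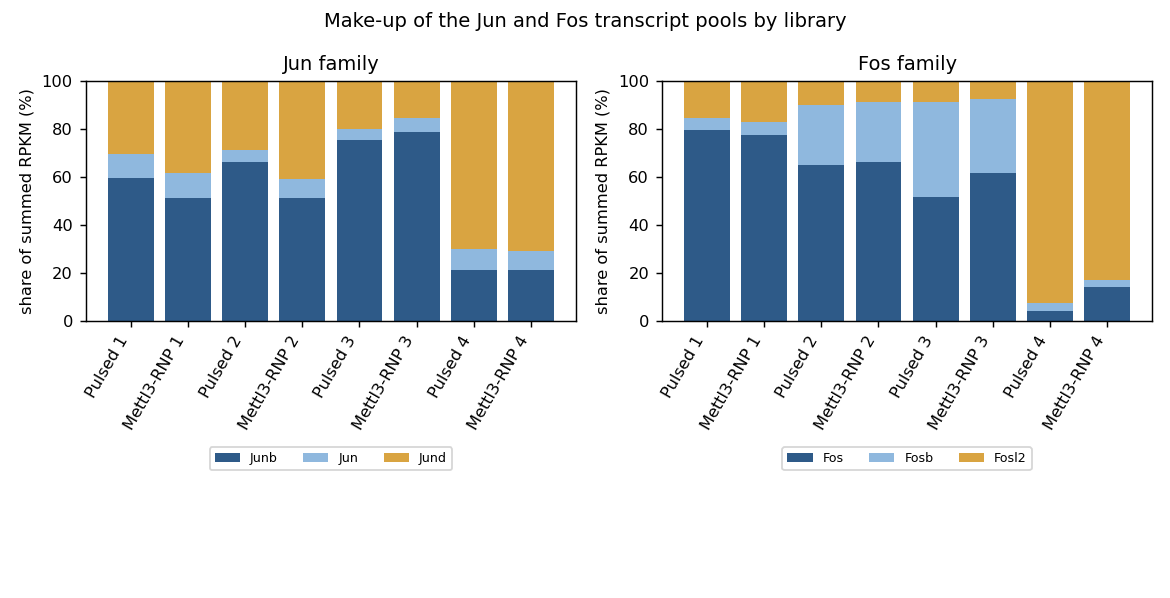
Share of each gene in the summed RPKM (y axis, %) of the Jun family (left) and the Fos family (right), with 1 stacked bar per library. Junb led the Jun pool and Fos the Fos pool in pairs 1 to 3, and Jund and Fosl2 led in both libraries of pair 4. Lengths were those of all annotated exons, and the lead of Fos over Fosb in Pulsed 3 rests on them.

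Other genes around AP-1 were read from 3 lists. Of 19 further family and partner genes, 12 were tested and 0 passed in edgeR (3 at an unadjusted p under 0.05, close to the 22.5% of all tested genes), while DESeq2 called 3, against 9.70% of all genes, and limma-voom 0. Their median log2 fold change was 0.04, from -0.15 for Atf2, a CRE-binding partner of Jun, to 0.61 for Nfe2 (SE 0.156, edgeR adjusted p = 0.0709), a CNC factor that binds DNA with small Maf proteins. Nfe2 was higher in 4 of 4 pairs.

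Among 29 kinases, factors and ligases that act on AP-1 genes or proteins, all 29 were tested and 1 rose, a share close to the 3.74% called among all tested genes. At an unadjusted p under 0.05 there were 9 of 29, beside 22.5% of all tested genes. Fitted higher were 14 and lower 15, beside 7443 and 7499 of all tested genes. In 4 of 4 pairs 4 were higher and 7 lower, beside 15.7% and 16.0% of all tested genes. Mapk7, the kinase ERK5, went from 25.2 ± 3.62 to 32.2 ± 5.18 CPM (SD, n = 4), a log2 fold change of 0.35 (SE 0.0732, edgeR adjusted p = 0.0452, higher in 4 of 4 pairs). The call was lost without any 1 of the replicates (adjusted p = 0.0606 to 0.232). The median of the list was -0.05, and it ran from -0.26 for Rps6ka3, a ribosomal S6 kinase, to 0.50 for Mapk11, a p38 kinase, which both missed the threshold (edgeR adjusted p = 0.0838 and 0.244).

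Of 24 genes known to respond to AP-1, 18 were tested and 1 rose, beside 3.74% called among all tested genes. The count depended on the processing. DESeq2 called 5 of 18, 4 higher (Ccl2, Plau, Plaur and Hmox1) and 1 lower (Lif), beside 9.70% of all genes, and limma-voom called 2 of 18 (Plau and Plaur), beside 4.30%. Without the filter on low counts edgeR called 7 of 24, all higher, beside 2.95% of all genes. Without replicate 1 it called 4 of 18 (Tnf, Ccl2, Plau and Plaur), all higher, beside 2.18%. It called 0 without replicate 2, 3 or 4, or without the block. Of all tested genes, 26 of 14904 passed without replicate 2, 383 of 14900 without replicate 3 and 345 of 15496 without replicate 4. Without the block 0 of 14942 passed, so a count of 0 there says little about this list. Of the genes named here, those other than Plau and Tnf were named after their values were seen. At an unadjusted p under 0.05 there were 7, against 22.5% of all genes. Fitted higher were 14 and lower 4, beside 7443 and 7499 of all tested genes. Plau, the urokinase plasminogen activator, went from 115 ± 37.5 to 174 ± 52.1 CPM (SD, n = 4), a log2 fold change of 0.61 (SE 0.131, edgeR adjusted p = 0.0479, higher in 4 of 4 pairs). Plau kept its call without replicate 1 (adjusted p = 0.0135) and lost it without replicate 2, 3 or 4 (up to 0.187). Tnf, an inflammatory cytokine, had the highest fitted value, 1.36 (SE 0.496, edgeR adjusted p = 0.154), with differences of -0.42, 2.33, 2.61 and 0.45 in pairs 1 to 4. Tnf passed in edgeR without replicate 1 (1.90, adjusted p = 0.0388) and without the filter on low counts (1.35, adjusted p = 1.3e-18). The filtered edgeR fit on the same libraries gave an adjusted p of 0.154. The smaller p-value thus does not rest on the spread of the 4 Tnf pairs alone. The median log2 fold change of the 18 genes was 0.16.

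The transcripts of the members were also read for DRACH, the 5-letter consensus at which the Mettl3 complex is known to methylate, in the sequence of the canonical transcript. Jun and Batf had 22.6 motifs per kb each, Fosb 19.6, Fos 19.4, Atf3 19.2, Fosl2 17.1, Junb 16.6, Maff 16.3 and Jund 12.0 per kb, against a median of 19.9 over 12043 tested protein-coding genes. Jund stood near the low end, as 1.18% of these genes had fewer per kb, while 80.6% had fewer than Jun and 80.5% fewer than Batf. A motif does not show that a site is methylated, and no methylation was measured in these libraries.

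**Figure D4:**
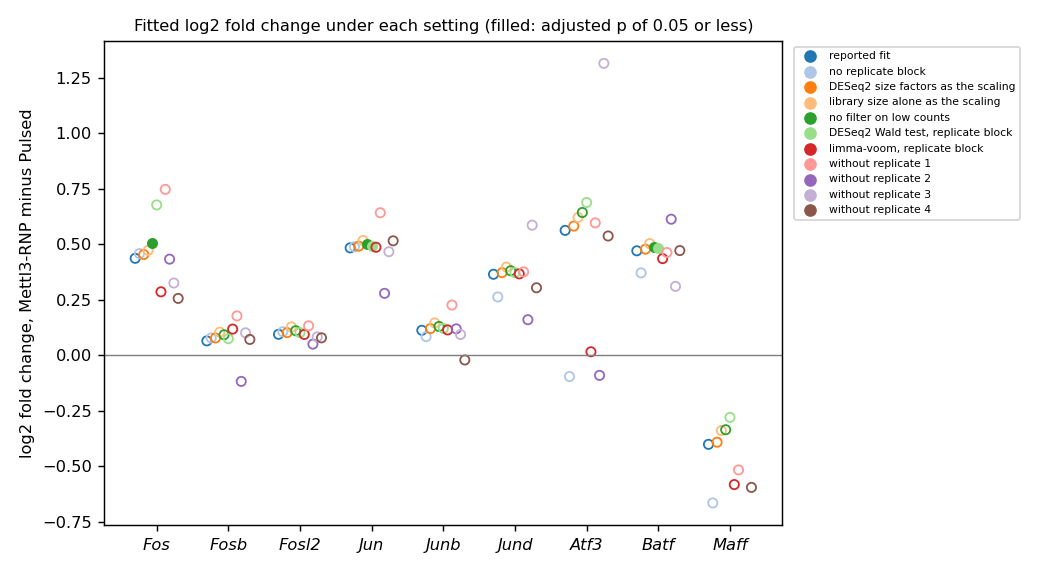
Fitted log2 fold change of each AP-1 gene (y axis) under each way of processing, with filled points where the adjusted p was 0.05 or less. Filled points occur for Fos, Jun and Batf, in the edgeR fit with no filter on low counts and, for Jun and Batf, also in DESeq2, and the fits of Fosb, Junb and Atf3 lie on both sides of 0.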

How the data were processed

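RNA-seq reads of 8 BMMC libraries were mapped by the authors to GRCm39 with HISAT2 2.2.1 after FastQC 0.11.9, and featureCounts 2.0.1 gave the deposited values, which are whole-number counts per Ensembl gene with no normalization. Strand and multimapping settings are not given in the sources used here. A batch correction named in the study's methods is not visible in these counts. GENCODE release M39 named 56017 of 56748 IDs (98.7%), and unnamed IDs held at most 0.113% of a library's counts.

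Genes were kept by filterByExpr (about 10 counts in 4 libraries), scaled by TMM and tested with the edgeR 4.0.16 quasi-likelihood test in R 4.3.3, blocked by replicate number, with Benjamini-Hochberg adjustment over 14942 genes. The fit was tested on simulated data with the same dispersion for every gene and no variation of the change between pairs. That run does not speak for genes as variable between pairs as Fos or Atf3. Log2 CPM used a prior count of 2. Intervals are at 95%. In the blocked fits, p-values set a change against the spread between pairs of libraries, an estimate that borrows from other genes. That estimate changes with the genes kept and with the tool. A small p-value without the filter on low counts is thus not evidence from a gene's own 4 pairs alone. Intervals and limits from counts of 0 cover counting error only, since no molecular identifiers were used. The pairing rests on the series text, which names 4 mice. After the group mean was taken off, libraries with the same number correlated at 0.825, 0.489, 0.879 and 0.765 over 11985 genes of at least 1 CPM, against at most 0.183 for different numbers.

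Alternatives were no block, other scalings, no filter, DESeq2 1.42.0, limma-voom (limma 3.58.1), a fold change of at least 1.5 and leaving out each replicate. The 9 members and Mettl3 were always named. Of the other lists, genes with an adjusted p of 0.05 or less and the highest and lowest fold changes were named, plus the 5 genes most like Fos. The value of 1 gene this rule names is not reported here. Members and lists were chosen with earlier results of these data known.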

Additional observations from a re-analysis of the deposited data

Results flagged for a closer look

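In 20 groups of 4 values (9 AP-1 genes and Mettl3 in each group), 1 library stood far from the other 3 in 5 groups, where chance gives about 1 in 20 groups, thus 1. All 5 were libraries of replicate 3. Atf3 was at 13.3 CPM in Pulsed 3 and at 11.4 CPM in Mettl3-RNP 3. Maff was at 10.3 CPM in Pulsed 3 and at 6.42 CPM in Mettl3-RNP 3. Mettl3 was at 11.2 CPM in Pulsed 3, below the other Pulsed libraries. Libraries with the same number deviated together, so these groups are not independent.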

How the results depend on the processing

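The replicate block decided most calls, since without it 0 of all tested genes passed in edgeR (579 at an unadjusted p under 0.05), 0 upstream and 0 responsive genes passed, Mettl3 stood at -1.31 (adjusted p = 0.744), and Atf3 turned to -0.10. Without the filter on low counts the counts past the threshold were 993 of all genes, 3 members, 2 family, 0 upstream and 7 of 24 responsive genes. DESeq2 gave 1449, 2, 3 (Bach1, Nfe2 and Nfe2l2, all higher), 3 (Mapk7 and Rps6ka1 higher, Rps6ka3 lower) and 5 (4 higher, Lif lower). Responsive genes numbered 2 with DESeq2 size factors (Plau and Plaur) and 2 with limma-voom, and library size alone called 1 family gene, Nfe2l2. These genes were named after their values were seen. A fold change of at least 1.5 left 308 of all genes and 0 upstream genes. Leaving out each replicate gave 26 (without replicate 2) to 383 of all genes, 0 members, 0 to 1 family genes, 0 upstream genes and 0 to 4 responsive genes, each fit on fewer libraries.

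With each replicate left out, Fosb ranged from -0.12 (without replicate 2) to 0.18, Junb from -0.021 (without replicate 4) to 0.23 and Atf3 from -0.090 (without replicate 2) to 1.31, and the cause was not tested. Other members kept their direction under the alternatives run, with Maff untested without replicate 2 or 3. Scalings moved the median of all genes to at most 0.03. Depth limits Atf3 and Maff, with counts of 0 to 4 in some libraries. Only 4 pairs were available, and whether their number kept other members from passing was not tested.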
